A study of Mus musculus with 30 samples.

Results

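The genes described here are the 10 that carry hepatic gluconeogenesis and its control by insulin and glucagon: the enzymes *Pck1*, *G6pc*, *Fbp1* and *Pc*, the transcriptional regulators *Ppargc1a* and *Foxo1*, the insulin receptor *Insr* with its substrates *Irs1* and *Irs2*, and the glucagon receptor *Gcgr*. They were picked by name from 14173 genes in the count tables. Of the 10, 9 were found under these symbols and 1, *Pc* (pyruvate carboxylase), under its synonym *Pcx*. All 10 passed the filter on low counts in every comparison.

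The data are 3′ mRNA tag counts from the livers of 30 male C57BL/6J mice, 6 per diet, each mouse giving 1 library. The study asked how far a low methionine supply accounts for the responses to a low protein diet when the protein is casein or soy. Mice were fed from 12 weeks of age for 12 weeks, were 6 months old at death and were fasted for 4 hours beforehand. Cas-20% mice ate 20% casein (0.57 gm% methionine, 0.41 gm% cysteine) and Cas-5% mice ate 5% casein (0.15 gm% methionine, 0.1 gm% cysteine). Soy-20% mice ate 20% soy protein (0.22 gm% of either amino acid). In the Soy-20%+SAA diet methionine and cysteine were added to 20% soy protein, giving 0.58 and 0.41 gm%. Soy-10% mice ate soy protein at 11.5% according to the labels, with 0.13 gm% of either amino acid. Both casein groups had spent the preceding 2 weeks on Cas-20% and the 3 soy groups had spent them on Soy-20%, so protein source, and with it the acclimation diet, differed in every comparison of casein with soy. Protein and sulfur amino acids fell together in the Cas-5% and Soy-10% diets, and their parts cannot be told apart from the restricted diets alone. Protein fell to 5% with casein and to 11.5% with soy, so the restrictions of casein and soy also differed in degree. Livers were sampled once, in males only, and 6 of the 10 mice fed per diet were sequenced. Library totals ran from 7694015 to 14565542 counts (median 10803734).

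Gluconeogenesis makes glucose from lactate, glycerol and amino acids and keeps blood glucose up during a fast. *Pc* makes oxaloacetate from pyruvate, *Pck1* (cytosolic phosphoenolpyruvate carboxykinase) turns oxaloacetate into phosphoenolpyruvate, *Fbp1* (fructose-1,6-bisphosphatase) reverses a committed step of glycolysis, and *G6pc* (the catalytic subunit of glucose-6-phosphatase) releases free glucose. Glucagon, acting through *Gcgr* and cyclic AMP, raises transcription of *Pck1* and *G6pc* with help from CREB and the coactivator PGC-1α, the product of *Ppargc1a*. Insulin, acting through *Insr*, *Irs1*, *Irs2* and the kinase AKT, moves FOXO1 out of the nucleus and so lowers transcription of FOXO1 targets, among them *Pck1*, *G6pc*, *Irs2* and *Igfbp1*, which encodes an insulin-like growth factor binding protein made in liver.

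The promoters of 6 genes are shown because these sequences are the kind that CREB and forkhead factors are known to read, and because the first 5 belong to the members called below between 2 diets and the last to *Igfbp1*. Each run is 300 bases long, from 250 bases before the RefSeq start of the gene, on the strand of the gene (build GRCm38.p6). Capitals mark matches, on either strand, to CAAAACA, which reads TGTTTTG on the opposite strand and spells a classical insulin response element, to TGTTTAC, which reads GTAAACA and is a forkhead core, and to TGACG, which reads CGTCA and is the core of a cyclic AMP response element.
Irs2, chr8:11008880-11009179, minus strand: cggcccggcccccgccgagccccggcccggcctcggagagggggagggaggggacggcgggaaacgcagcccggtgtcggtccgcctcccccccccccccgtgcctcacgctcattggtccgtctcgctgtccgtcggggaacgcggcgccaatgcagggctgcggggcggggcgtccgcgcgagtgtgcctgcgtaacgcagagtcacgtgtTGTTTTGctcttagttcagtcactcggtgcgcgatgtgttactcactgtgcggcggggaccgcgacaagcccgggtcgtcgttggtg
Irs1, chr1:82291390-82291689, minus strand: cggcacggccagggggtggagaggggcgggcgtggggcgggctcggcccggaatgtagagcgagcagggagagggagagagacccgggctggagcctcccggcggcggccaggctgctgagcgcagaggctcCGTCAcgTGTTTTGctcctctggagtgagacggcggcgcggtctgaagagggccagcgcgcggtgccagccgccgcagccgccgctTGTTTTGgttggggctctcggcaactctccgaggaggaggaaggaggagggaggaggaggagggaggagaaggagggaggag
Pck1, chr2:173152823-173153122, plus strand: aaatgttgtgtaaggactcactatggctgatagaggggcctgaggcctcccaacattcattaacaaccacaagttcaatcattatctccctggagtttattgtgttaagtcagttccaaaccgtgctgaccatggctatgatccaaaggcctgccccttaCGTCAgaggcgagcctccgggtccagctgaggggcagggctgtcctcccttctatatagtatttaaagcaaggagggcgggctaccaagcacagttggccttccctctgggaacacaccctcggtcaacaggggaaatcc
G6pc, chr11:101367466-101367765, plus strand: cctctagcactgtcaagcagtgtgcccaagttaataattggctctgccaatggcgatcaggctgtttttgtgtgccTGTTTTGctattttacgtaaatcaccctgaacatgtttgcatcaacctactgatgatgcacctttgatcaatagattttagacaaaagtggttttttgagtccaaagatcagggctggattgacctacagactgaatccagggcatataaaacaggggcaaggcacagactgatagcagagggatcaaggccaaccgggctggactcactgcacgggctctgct
Ppargc1a, chr5:51567676-51567975, minus strand: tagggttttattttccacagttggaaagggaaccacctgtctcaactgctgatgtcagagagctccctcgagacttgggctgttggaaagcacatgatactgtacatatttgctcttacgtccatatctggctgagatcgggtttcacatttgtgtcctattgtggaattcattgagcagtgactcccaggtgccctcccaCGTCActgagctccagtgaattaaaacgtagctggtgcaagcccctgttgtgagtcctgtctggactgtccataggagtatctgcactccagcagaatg
Igfbp1, chr11:7197537-7197836, plus strand: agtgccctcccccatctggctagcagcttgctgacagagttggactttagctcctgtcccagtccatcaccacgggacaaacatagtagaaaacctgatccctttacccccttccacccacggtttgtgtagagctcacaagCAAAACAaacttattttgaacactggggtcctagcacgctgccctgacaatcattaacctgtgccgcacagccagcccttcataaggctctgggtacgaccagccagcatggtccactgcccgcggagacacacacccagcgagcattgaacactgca
Of the 10 genes, 9 had such a window in the RefSeq table, *Pc* having 2. *Irs2* held TGTTTTG with its first base at -37 from the start, *Irs1* held it at -111 and -32, and *Igfbp1* held CAAAACA at -108. *G6pc* held TGTTTTG at -174. Among all 32851 promoter windows of this length, 6.28% held that motif in either orientation. CGTCA was found at -90 in *Pck1*, at -49 in *Ppargc1a* and at -118 in *Irs1*, and 20.8% of all windows held it. TGTTTAC, present in 3.65% of all windows, was found in no window of these genes, and the windows of *Fbp1*, *Pc*, *Foxo1* and *Gcgr* held none of the 3 motifs. These are matches of letters only.

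In the GENCODE M21 annotation of GRCm38, whose gene starts need not be those of RefSeq, the genes lie at chr2:173153048-173159273 (*Pck1*), chr11:101367561-101377903 (*G6pc*), chr13:62864753-62888282 (*Fbp1*), chr19:4510472-4621752 (*Pc*), chr5:51454250-51567726 (*Ppargc1a*), chr3:52268336-52353221 (*Foxo1*), chr1:82233101-82291416 (*Irs1*), chr8:10984681-11008458 (*Irs2*), chr8:3122061-3279617 (*Insr*) and chr11:120530699-120538986 (*Gcgr*). Of the 10, 7 overlap other annotated genes. On the same strand *Ppargc1a* overlaps Gm42614, Gm42615 and Gm43605, and *Foxo1* overlaps Gm38034; strand cannot separate their reads. On the opposite strand *Irs2* overlaps 9530052E02Rik, *Pc* overlaps *Lrfn4*, and *Ppargc1a*, *Foxo1*, *Irs1*, *Insr* and *Gcgr* overlap predicted genes or a pseudogene. The kit keeps the strand, but the strand setting of the counting is not stated, so reads of these overlapping genes may not have been kept apart. The counts are of tags from the 3′ end of each transcript, so reads do not cover whole exons.

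Some Soy-20%+SAA libraries stood apart from the others before any comparison was made. A GC slope was fitted for each library, which says by how much (log2) the counts of genes with 10% more GC in the last 200 bases of the transcript exceeded the mean of all libraries. It was -0.027 and -0.025 in livers 1 and 2 of that diet, 0.055 in liver 3, and 0.174, 0.167 and 0.192 in livers 4 to 6, while it lay between -0.057 and 0.024 in the other 24 libraries. The last 200 bases of *Pck1* and *G6pc* have 30.5% GC, those of *Irs1* 32%, *Insr* and *Ppargc1a* 37.5%, *Irs2* and *Fbp1* 38.5%, *Foxo1* 50%, *Gcgr* 51% and *Pc* 52.5%, against a median of 40.5% over all genes. Comparisons with the Soy-20%+SAA diet were therefore also run without its livers 3 to 6, which leaves 2 livers for it. Values from these fits are given below for part of the genes and lists. Cas-20% livers held few muscle transcripts: the sum of 4 skeletal muscle markers (*Ckm*, *Acta1*, *Myh4*, *Tnnt3*) was at most 3.07 normalized counts in that diet, between 23.8 and 59.3 in Cas-5%, and between 0.95 and 51.3 in the soy diets.

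The tissue matched its label. All 8 hepatocyte markers were in the table, and their summed normalized counts averaged 897492 in Cas-20% livers, 978982 in Cas-5%, 924974 in Soy-20%+SAA, 895861 in Soy-20% and 912950 in Soy-10%, with *Alb* the most abundant. None of the 4 pancreatic islet markers (*Ins1*, *Ins2*, *Gcg*, *Iapp*) was in the table, so the hormones that act on this pathway were not measured here. In 1 Soy-10% liver the summed pancreatic acinar markers reached 5087 normalized counts. Livers are mixtures of cells, and fewer cells of a type and less RNA per cell cannot be told apart.

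**Figure D1:**
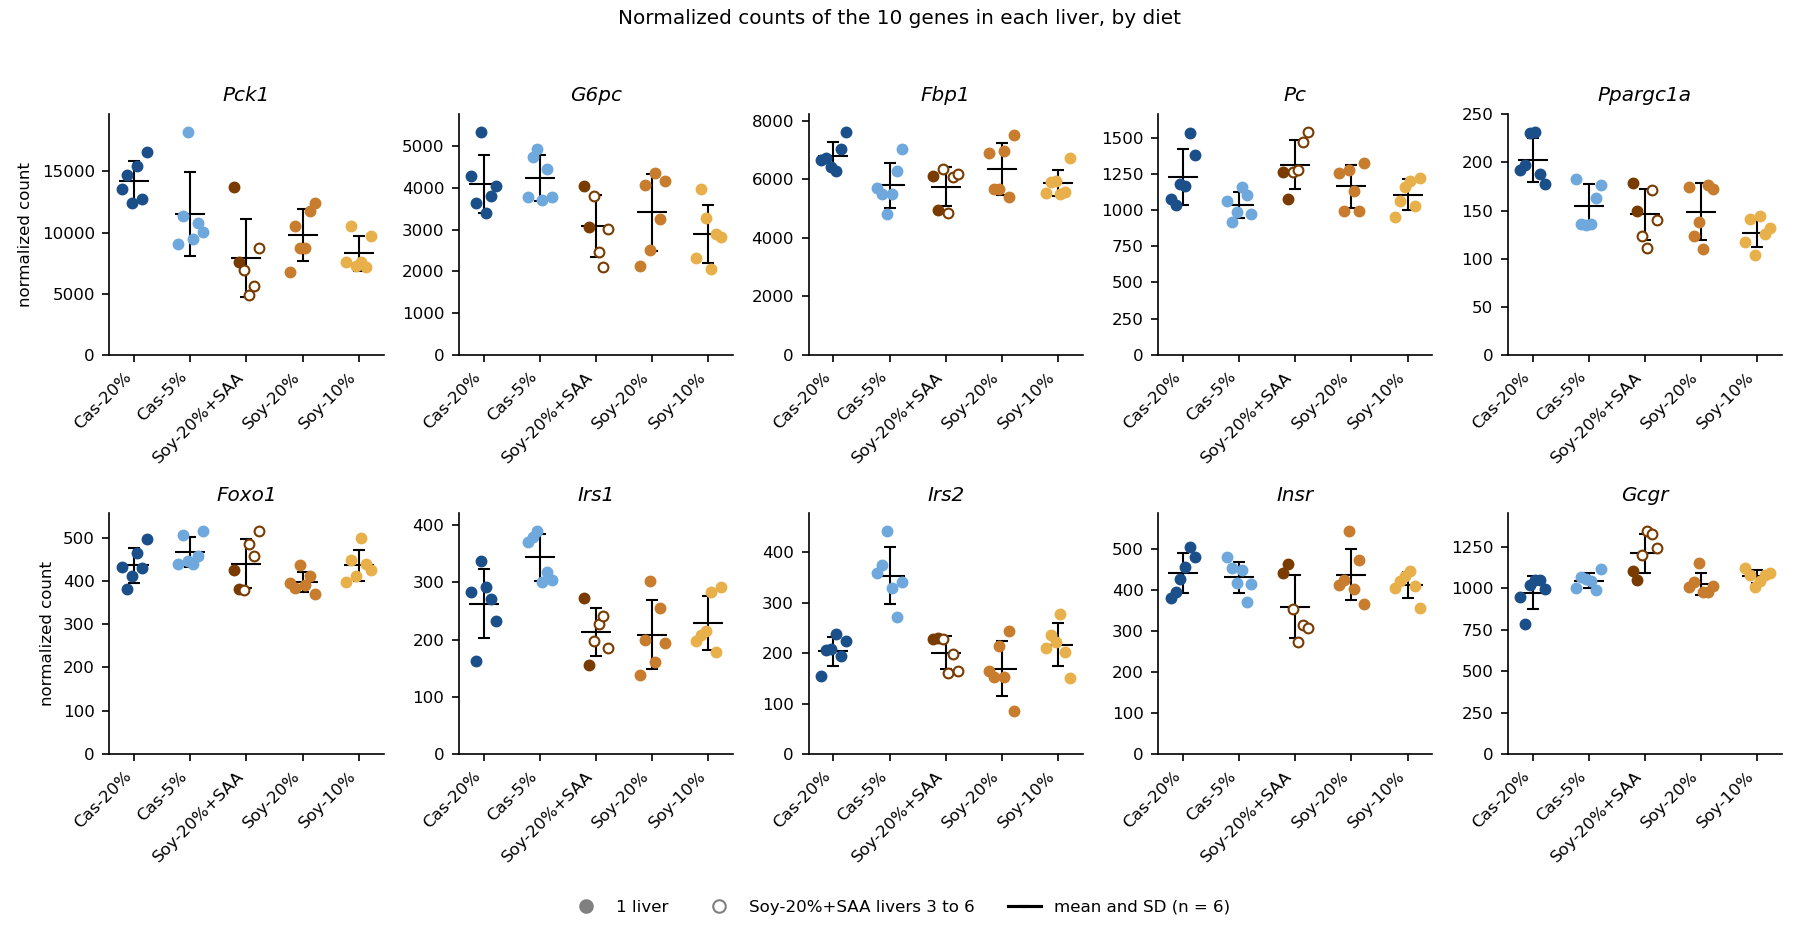
Normalized counts (y axis, linear, from 0) of the 10 genes in each of 30 livers, by diet; each point is 1 liver, bars are mean and SD (n = 6), and open points are Soy-20%+SAA livers 3 to 6. Cas-5% livers are highest for *Irs2* and *Irs1*, Cas-20% livers are highest for *Ppargc1a*, and the open points are lowest for *Insr* and highest for *Gcgr*.

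Over all 5 diets, 7 of the 10 genes differed in level (edgeR quasi-likelihood F test with Benjamini-Hochberg adjustment over all genes, adjusted p of 0.05 or less, which is what "called" means below). The adjusted p was 4.3e-05 for *Irs2*, 0.0011 for *Ppargc1a*, 0.0023 for *Pck1*, 0.0026 for *Irs1*, 0.0051 for *Gcgr*, 0.022 for *G6pc* and 0.04 for *Pc*. It was 0.1 for *Fbp1*, 0.11 for *Insr* and 0.13 for *Foxo1*. The background is high: 43.4% of all genes were called by the same test. Without Soy-20%+SAA livers 3 to 6, or with the GC slope as a covariate, *Pc* and *Gcgr* were no longer called and 5 of the 10 remained. Of all genes, 3433 and 3550 were called in these fits, in that order, after 5450 in the first fit.

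*Irs2* had the smallest adjusted p of the 10 over the 5 diets. Its product, insulin receptor substrate 2, links the receptor to PI3K and AKT and is the substrate of the receptor whose transcription is most sensitive to fasting in liver. In Cas-20% livers 1 to 6 it stood at 154, 207, 208, 237, 195 and 224 normalized counts. In Cas-5% livers it stood at 359, 374, 442, 329, 271 and 340. Every Cas-5% liver was above every Cas-20% liver. *Irs2* rose 1.74-fold with casein restriction (log2 fold change 0.80 ± 0.11 SE, edgeR adjusted p = 7.8e-05, n = 6 per diet), and it was called whichever single liver was left out (log2 fold change from 0.72 to 0.87). With restriction of soy protein the lowest, median and highest counts were 161, 213 and 229 in Soy-20%+SAA and 151, 216 and 278 in Soy-10%. The Soy-20%+SAA range lay within that of Soy-10%, and the difference of 0.11 ± 0.14 (log2) was not called (edgeR adjusted p = 0.61). In Soy-20% livers the counts were lower, from 85.3 to 243 with a median of 159, and Soy-10% exceeded Soy-20% by 0.36 ± 0.19 without being called (edgeR adjusted p = 0.47).

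The change of *Irs2* differed between restriction of casein (20% to 5%) and of soy (20% to 11.5%). Source and degree of protein restriction cannot be told apart in this difference. Subtracting the log2 change with soy from that with casein left 0.69 ± 0.19 (edgeR adjusted p = 0.024 over 24 livers). Of all genes 8.69% were called for this difference and 3.2% in the same direction, and *Irs2* was the only one of the 10 genes called by edgeR. *Gcgr* stood at 0.29 for this difference and was called by DESeq2 (adjusted p = 0.045) and by edgeR over all 30 livers (adjusted p = 0.049), but was 0.12 without Soy-20%+SAA livers 3 to 6 (edgeR adjusted p = 0.64). The value for *Irs2* was 0.88 (edgeR adjusted p = 0.028) without Soy-20%+SAA livers 3 to 6. In the fit over all 30 livers it was 0.68 with an adjusted p of 0.054. With Soy-20% as the control for soy, a choice made after the data were seen, the difference was 0.43 and not called (edgeR adjusted p = 0.31).

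*Irs1* (insulin receptor substrate 1) does the same work with a different time course over fasting and feeding. Its normalized counts in Cas-20% livers were 284, 162, 337, 292, 271 and 233, and in Cas-5% livers 371, 380, 390, 300, 318 and 304. Of the Cas-5% livers, 3 exceeded every Cas-20% liver, so the diets overlap. It was 1.32-fold higher in Cas-5% (log2 fold change 0.40 ± 0.13, edgeR adjusted p = 0.04). That call did not hold in 7 of 12 fits that left out 1 liver (log2 fold change 0.28 without Cas-20% liver 2, the lowest of its diet), nor in a fit over all 30 livers (adjusted p = 0.08) or with the GC slope as a covariate (0.33, adjusted p = 0.11). In the soy diets *Irs1* had a median of 212 in Soy-20%+SAA, of 196 in Soy-20% and of 212 in Soy-10%, and the change with soy restriction was 0.10 ± 0.15 (edgeR adjusted p = 0.66; 0.08 without Soy-20%+SAA livers 3 to 6). Its change with casein minus that with soy, 0.29 ± 0.21, was not called (edgeR adjusted p = 0.41), so a difference between proteins was not shown for *Irs1*.

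*Insr* and *Foxo1* gave no called change. *Insr* encodes the receptor tyrosine kinase that binds insulin. Its median was 443 normalized counts in Cas-20%, 432 in Cas-5%, 334 in Soy-20%+SAA, 418 in Soy-20% and 417 in Soy-10%. The low median of Soy-20%+SAA came from livers 3 to 6, at 353, 273, 314 and 308, below each of the other 26 livers, while livers 1 and 2 stood at 442 and 463. *Foxo1*, the forkhead factor that insulin keeps out of the nucleus, had medians between 393 in Soy-20% and 451 in Cas-5%, and changed by 0.11 ± 0.07 with casein restriction and by -0.02 ± 0.09 with soy restriction (edgeR adjusted p = 0.28 and 0.92). Levels of mRNA do not report the location or phosphorylation of FOXO1.

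*Ppargc1a* is the coactivator through which fasting signals reach the gluconeogenic promoters. It was highest in Cas-20% livers, at 192, 197, 231, 232, 188 and 178 normalized counts, and lower in Cas-5% livers, at 183, 136, 135, 136, 163 and 177. Of the Cas-5% livers, 5 lay below every Cas-20% liver. *Ppargc1a* fell by 0.37 ± 0.10 (log2; edgeR adjusted p = 0.014), and the fall was called in all 12 fits that left out 1 liver. In Soy-20%+SAA livers it ran from 111 to 179, in Soy-20% from 110 to 177 and in Soy-10% from 104 to 144. With soy restriction the difference was -0.19 ± 0.12 and not called (edgeR adjusted p = 0.29). Without Soy-20%+SAA livers 3 to 6 it was -0.38 ± 0.14, close to the value with casein, and with the GC slope as a covariate -0.29 ± 0.15, neither of them called (edgeR adjusted p = 0.19 and 0.34). Here too the difference between casein and soy responses, -0.19 ± 0.16, was not called (edgeR adjusted p = 0.51), and it was 0.00 ± 0.19 without those livers.

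In the casein comparison, then, 3 of the 10 genes were called, 2 higher and 1 lower. Of all 12076 genes tested, 24.9% were called, 11.6% higher and 13.3% lower. The members' share is close to the background, and their median absolute log2 change was 0.22 against 0.19 for all genes.

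The 4 enzymes of gluconeogenesis were not called with casein restriction. *Pck1* had 13594, 14685, 12403, 15428, 12727 and 16615 normalized counts in Cas-20% livers. In Cas-5% livers it had 9048, 11396, 18255, 9452, 10810 and 10081. All Cas-5% livers but the third lay below the Cas-20% range, and the third lay above it. The change was -0.29 ± 0.14 (edgeR adjusted p = 0.15), and without Cas-5% liver 3 it was -0.47 and called (edgeR adjusted p = 0.0015). *G6pc* ran from 3406 to 5349 (median 3928) in Cas-20% and from 3714 to 4943 (median 4112) in Cas-5%, a change of 0.06 ± 0.11 (edgeR adjusted p = 0.71). *Fbp1* ran from 6276 to 7622 in Cas-20% and from 4807 to 7040 in Cas-5% (-0.21 ± 0.09, edgeR adjusted p = 0.079). *Pc* ran from 1035 to 1532 in Cas-20% and from 919 to 1162 in Cas-5% (-0.23 ± 0.09, edgeR adjusted p = 0.083). *Fbp1* was called without Cas-5% liver 6 (adjusted p = 0.017), and *Pc* without Cas-20% liver 2 (adjusted p = 0.036) and with the GC slope as a covariate (-0.30 ± 0.09, adjusted p = 0.03).

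*Gcgr*, the receptor for glucagon on hepatocytes, was not called across the casein diets: its range was 787 to 1049 normalized counts in Cas-20% and 991 to 1118 in Cas-5%, with a change of 0.12 ± 0.07 (edgeR adjusted p = 0.26). In Soy-20%+SAA it was 1104, 1047, 1198, 1345, 1326 and 1245. Livers 3 to 6 of that diet exceeded each of the other 26 livers. In Soy-20% the range was 977 to 1155 and in Soy-10% it was 1008 to 1123.

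No member was called with soy restriction, where 17% of all genes were. The tool was edgeR, and DESeq2 called none of the 10 either. An unadjusted edgeR p under 0.05 was found for 2 of the 10, against 4064 of all 11983 genes. These were *Pc* at -0.25 ± 0.09 (edgeR adjusted p = 0.068) and *Gcgr* at -0.18 ± 0.07 (edgeR adjusted p = 0.088). Leaving out Soy-20%+SAA livers 3 to 6, these became -0.09 (adjusted p = 0.73) and -0.01 (adjusted p = 0.95). *Pck1* had a lowest, median and highest count of 4882, 7281 and 13764 in Soy-20%+SAA and of 7156, 7583 and 10507 in Soy-10%, a difference of 0.06 ± 0.20 (edgeR adjusted p = 0.85). Without the same livers it was -0.37 ± 0.19, the opposite sign, and again not called (edgeR adjusted p = 0.36). *G6pc* differed by -0.09 ± 0.17, *Fbp1* by 0.03 ± 0.08 and *Insr* by 0.20 ± 0.12, with edgeR adjusted p-values of 0.74, 0.85 and 0.26. Leaving out those livers, *G6pc* was at -0.30 ± 0.19 (edgeR adjusted p = 0.48) and *Insr* at -0.14 ± 0.09, and with the GC slope as a covariate *G6pc* was at -0.39 ± 0.18 (edgeR adjusted p = 0.27). The median absolute change of the 10 genes was 0.10 against 0.19 for all genes.

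Comparing Soy-10% with Soy-20%, both without added amino acids, called 0.866% of all genes and none of the 10 with edgeR, with DESeq2 or at an unadjusted p under 0.05. Of all 11897 genes, 1460 had an unadjusted edgeR p under 0.05. *Pck1* and *G6pc* each differed by -0.24 (SE 0.14 and 0.18, edgeR adjusted p = 0.52 and 0.65). Adding methionine and cysteine to the 20% soy diet called 0.00838% of all genes, which is 1 gene, and none of the 10. *Gcgr* was 0.23 ± 0.07 higher (edgeR adjusted p = 0.097) and *Insr* -0.29 ± 0.14 (edgeR adjusted p = 0.2), these being the members with an unadjusted p under 0.05. That threshold was met by 2892 of all 11932 genes. DESeq2 called *Gcgr* in this comparison (0.24, DESeq2 adjusted p = 0.047). EdgeR called it too over all 30 livers (adjusted p = 0.02). Without Soy-20%+SAA livers 3 to 6 the change of *Gcgr* was 0.07 ± 0.09 (edgeR adjusted p = 0.91) and that of *Insr* 0.05.

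**Figure D2:**
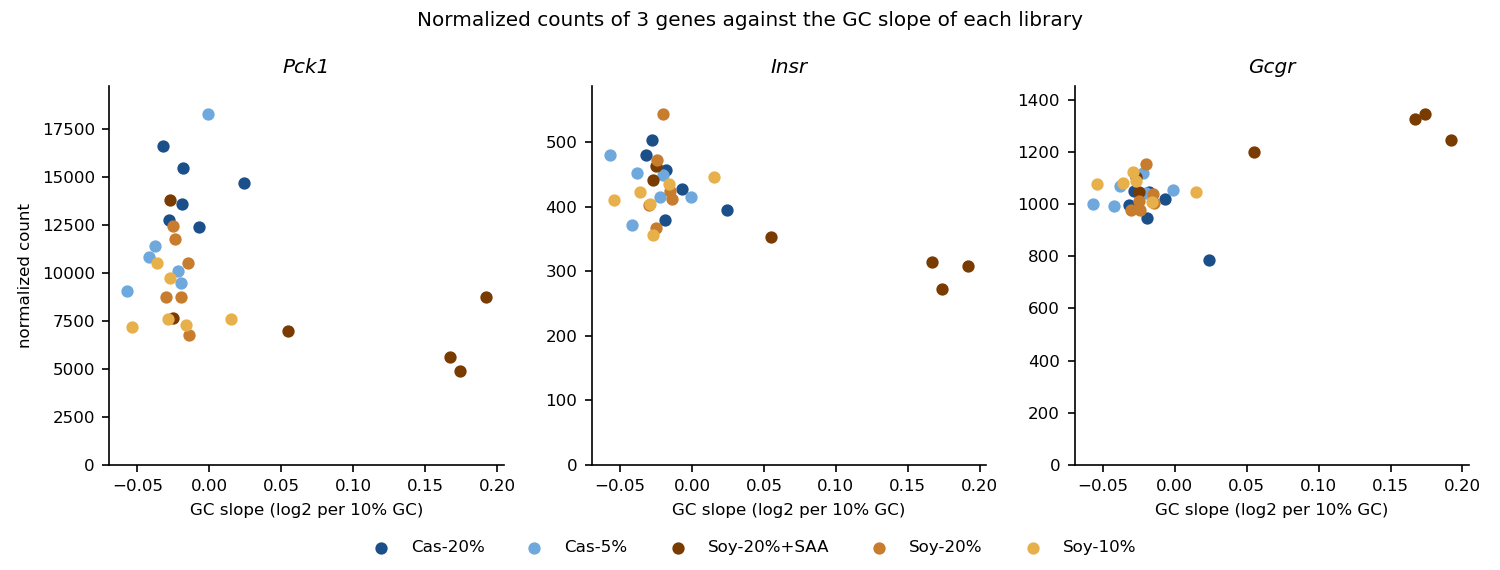
Normalized counts of *Pck1*, *Insr* and *Gcgr* (y axis, from 0) against the GC slope of each library (x axis, log2 per 10% GC), 1 point per liver, coloured by diet. The 4 Soy-20%+SAA livers with slopes of 0.055 to 0.192 hold the lowest *Insr* counts (273 to 353) and the highest *Gcgr* counts (1198 to 1345), and 2 of them hold the lowest *Pck1* counts.

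The control diets compared protein sources at matched methionine and cysteine. *Pck1* was 1.8-fold higher in Cas-20% than in Soy-20%+SAA (log2 difference 0.85 ± 0.20, edgeR adjusted p = 0.044). The counts were 13764, 7620, 6942, 4882, 5607 and 8745 in Soy-20%+SAA livers, so that liver 1 fell within the Cas-20% range of 12403 to 16615 and the other 5 lay below it. Of all genes 2.43% were called, 1.42% higher in casein, and *Pck1* was the only one of the 10. The call did not hold in 10 of 12 fits that left out 1 liver, with the GC slope as a covariate (0.56, edgeR adjusted p = 0.33) or without Soy-20%+SAA livers 3 to 6 (0.41, edgeR adjusted p = 0.69). Against Soy-20% livers, whose GC slopes were like those of the casein libraries, *Pck1* was 0.54 higher in Cas-20% and called (edgeR adjusted p = 0.035), where 2.69% of all genes were called. This comparison was added after the data were seen, and its diets were not matched, Soy-20% holding less methionine and cysteine than Cas-20%. The next differences in size were those of *Ppargc1a* (0.48, edgeR adjusted p = 0.051), *G6pc* (0.41, adjusted p = 0.11), *Irs1* (0.31, adjusted p = 0.25) and *Gcgr* (-0.31, adjusted p = 0.059), none of them called by edgeR. DESeq2 called *Ppargc1a* and *Gcgr* (adjusted p = 0.011 and 0.017), as did edgeR over all 30 livers (adjusted p = 0.0082 and 0.0026). Without Soy-20%+SAA livers 3 to 6 they were at 0.30 and -0.15 (edgeR adjusted p = 0.69 and 0.83). For *G6pc*, livers 1 and 2 of Soy-20%+SAA held 4037 and 3061 normalized counts, against 3406 to 5349 in Cas-20%. Its livers 3 to 6 held 3808, 2457, 2110 and 3006, so the lowest lay in livers 4 to 6. *Irs2* differed by 0.02 ± 0.12.

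The restricted diets, Cas-5% and Soy-10%, have close methionine contents and used libraries with GC slopes in the same range. They differ in protein level (5% and 11.5%) as well as in protein source, and these cannot be told apart. Here 4 of the 10 genes were called, all higher in Cas-5%, against 10.7% of all genes in either direction and 4.59% higher. *Irs2* was 1.64-fold higher in Cas-5% (0.72 ± 0.12, edgeR adjusted p = 0.0012) and *Irs1* 1.52-fold (0.60 ± 0.11, edgeR adjusted p = 0.0024). Every Cas-5% liver exceeded every Soy-10% liver for *Irs1* (at least 300 against at most 292), and for *Irs2* 5 of 6 did so. *G6pc* was 1.48-fold higher (0.57 ± 0.13, edgeR adjusted p = 0.008), with 3714 to 4943 normalized counts in Cas-5% and 2059 to 3982 in Soy-10%. These calls held whichever liver was left out. *Pck1* was 1.4-fold higher (0.49 ± 0.15, edgeR adjusted p = 0.041), a call that was lost in 7 of 12 fits that left out 1 liver (0.31 without Cas-5% liver 3), in DESeq2 (adjusted p = 0.098) and in a fit over all 30 livers (adjusted p = 0.13). *Ppargc1a* was higher by 0.30 ± 0.11 without being called (edgeR adjusted p = 0.074). *Fbp1*, *Pc*, *Foxo1*, *Insr* and *Gcgr* differed by between -0.08 and 0.12.

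**Figure D3:**
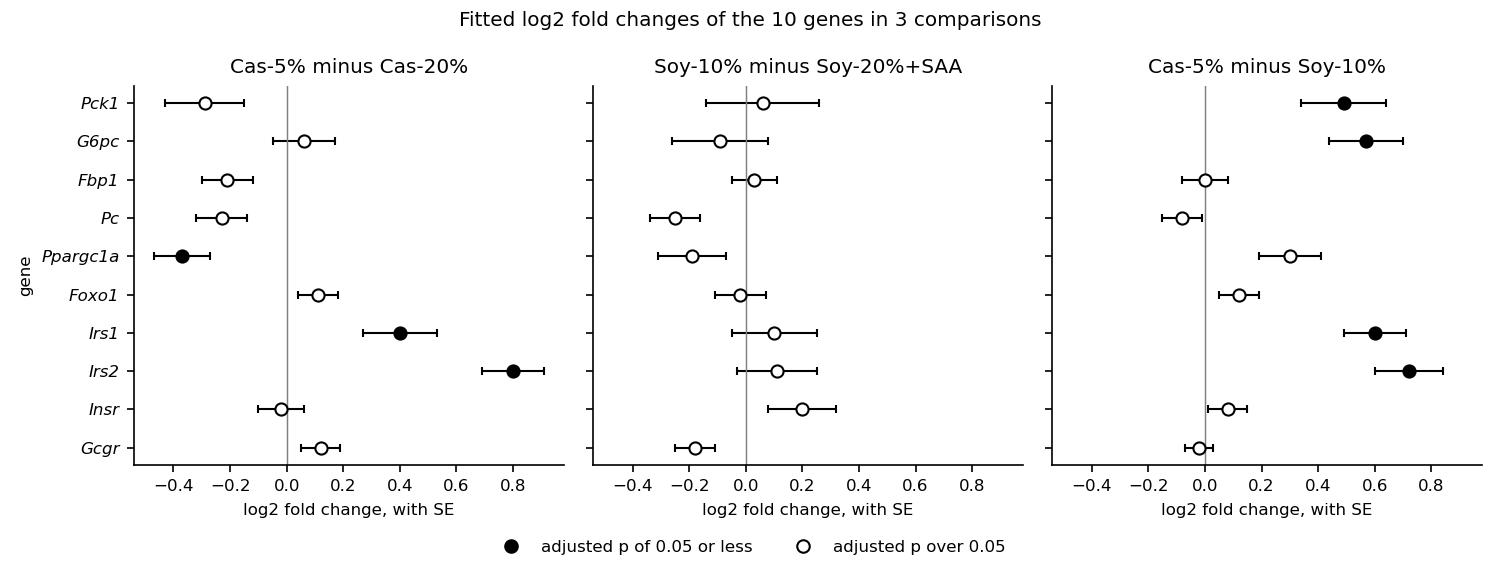
Log2 fold changes (x axis) with SE of the 10 genes in Cas-5% minus Cas-20%, Soy-10% minus Soy-20%+SAA, and Cas-5% minus Soy-10%, each from 6 livers per diet. Filled points were called by edgeR: 3 genes in the first panel, none in the second and 4 in the third, with *Irs2* at 0.80, 0.11 and 0.72.

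Ordered by mean level, neighbouring diets overlapped in range for every member. *Irs2* ran from 353 normalized counts in Cas-5% through 217 in Soy-10%, 204 in Cas-20% and 201 in Soy-20%+SAA to 169 in Soy-20%, and of these steps only that from Cas-5% to Soy-10% was called. *Irs1* ran from 344 in Cas-5% through 263 in Cas-20%, 229 in Soy-10% and 213 in Soy-20%+SAA to 209 in Soy-20%, with the first step called. *Ppargc1a* ran from 203 in Cas-20% through 155 in Cas-5%, 149 in Soy-20% and 146 in Soy-20%+SAA to 127 in Soy-10%, again with the first step called. For *Pck1* the order was Cas-20% (14242), Cas-5% (11507), Soy-20% (9806), Soy-10% (8302) and Soy-20%+SAA (7927), and for *G6pc* it was Cas-5% (4233), Cas-20% (4090), Soy-20% (3414), Soy-20%+SAA (3080) and last Soy-10% (2893). No step between neighbours was called for either enzyme.

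Around the members, a wider list of gluconeogenic enzymes and carriers was examined. The counts of this and the following lists, several of which include members of the 10 genes, stand against 24.9% of all genes called with casein restriction, 17% with soy restriction (2035 genes, and 317 genes without Soy-20%+SAA livers 3 to 6) and 10.7% between the restricted diets. Some lists below also have counts at an unadjusted p under 0.05 without Soy-20%+SAA livers 3 to 6. The share of all genes at that threshold is not given for those fits. With casein restriction 17 of 29 listed genes were called, 3 higher and 14 lower, with a median log2 change of -0.23 against 0.02 for all genes. *Got1*, the cytosolic aspartate aminotransferase, fell from a median of 3291 normalized counts in Cas-20% to 840 in Cas-5% (log2 fold change -2.02 ± 0.16, edgeR adjusted p = 2e-07). *Gpt*, alanine aminotransferase, fell from 1787 to 708 (-1.24 ± 0.08, edgeR adjusted p = 3.7e-08), and *Mdh1*, cytosolic malate dehydrogenase, by 0.68 ± 0.07 on the log2 scale (edgeR adjusted p = 3.1e-06). *Pck2*, the mitochondrial carboxykinase, rose from a median of 25.8 to 73.4 (1.45 ± 0.17, edgeR adjusted p = 1e-05), *Gpi1* (glucose-6-phosphate isomerase) rose by 0.68 ± 0.12 and *Mpc2*, a subunit of the mitochondrial pyruvate carrier, by 0.42 ± 0.09. For each of these 6 genes, which were named for their small adjusted p, the ranges of the diets did not overlap. The share of all genes without overlap is not given. With soy restriction 6 of 29 were called, 1 higher and 5 lower: *Gpt* fell by 0.69 ± 0.11, *Got1* by 0.78 ± 0.17 and *Got2* by 0.48 ± 0.10, and *Pck2* rose by 0.60 ± 0.16. Without Soy-20%+SAA livers 3 to 6, 1 of 29 was called, *Gpt* at -0.52 (edgeR adjusted p = 0.038), with *Pck2* at 0.66, *Got1* at -0.64 and *Got2* at -0.18.

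The listed transcriptional regulators of gluconeogenesis included 8 of 22 called with casein restriction, 1 higher and 7 lower (*Ppargc1a* among them), with a median of -0.10, against 11.6% of all genes called higher and 13.3% lower. *Cebpa*, a hepatocyte bZIP factor, fell by 0.56 ± 0.07 (edgeR adjusted p = 1.5e-05), *Foxo3* by 0.58 ± 0.08 and *Klf15*, a factor induced by fasting, by 0.38 ± 0.07, while *Hnf4a* rose by 0.27 ± 0.06. With soy restriction 3 of the 21 tested were called, a share that does not exceed the 17% of all genes, and the median was -0.04. *Cebpb* rose by 0.92 ± 0.16 and *Creb1* by 0.42 ± 0.11, and *Foxo3* fell by 0.63 ± 0.13. Without Soy-20%+SAA livers 3 to 6 edgeR called none of the 22 (6 at an unadjusted p under 0.05), with *Cebpb* at 0.57, *Foxo3* at -0.28 and *Creb1* at 0.12.

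Of the insulin signaling list, in which *Insr*, *Irs1* and *Irs2* are included, genes were called in both directions. With casein restriction 11 of 32 tested genes were called, 5 higher (*Irs1* and *Irs2* among them) and 6 lower, with a median of -0.02, against 24.9% of all genes called. *Mtor* rose by 0.44 ± 0.11, *Trib3*, an AKT-binding pseudokinase known as a stress target, by 0.69 ± 0.20 and *Akt1* by 0.25 ± 0.08. *Pik3r1*, the regulatory subunit of PI3K, fell by 0.39 ± 0.09, and *Ceacam1*, which takes part in insulin clearance, by 0.44 ± 0.11. With soy restriction 6 of 32 were called, 3 in each direction, with a median of 0.08: *Pde3b* (0.22 ± 0.07), *Sos1* (0.38 ± 0.12) and *Pdpk1* (0.31 ± 0.10) higher, and *Tsc1* (-0.35 ± 0.08), *Shc1* (-0.30 ± 0.09) and *Enpp1* (-0.23 ± 0.07) lower. None of the 32 was called by edgeR without Soy-20%+SAA livers 3 to 6, and 8 had an unadjusted p under 0.05. The values were then 0.31 for *Pde3b*, 0.12 for *Sos1*, 0.16 for *Pdpk1*, -0.25 for *Tsc1*, -0.27 for *Shc1* and -0.35 for *Enpp1*.

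Downstream of *Gcgr*, the list of glucagon and cyclic AMP signaling had 6 of 22 tested genes called with casein restriction, 3 in each direction, with a median of 0.01, a share close to the 24.9% of all genes. *Pde4b*, a phosphodiesterase that breaks down cyclic AMP, fell from a median of 585 normalized counts to 258 (-1.24 ± 0.15, edgeR adjusted p = 1.3e-05). *Prkaca* and *Prkar2a*, subunits of protein kinase A, fell by 0.44 ± 0.08 and 0.38 ± 0.11. *Arrb2* and *Arrb1*, the β-arrestins, rose by 0.38 ± 0.08 and 0.34 ± 0.11, and *Gnas*, the stimulatory G protein subunit, by 0.28 ± 0.08. The soy restriction called 5 of 21 (median 0.04), among them *Gnas* at 0.35 ± 0.07, *Crem* at 0.47 ± 0.11 and *Creb1* at 0.42 ± 0.11 higher, and *Pde4b* at -0.70 ± 0.19 lower. When Soy-20%+SAA livers 3 to 6 were left out edgeR called none of 22 (4 at an unadjusted p under 0.05), with *Pde4b* at -0.69, *Crem* at 0.46, *Gnas* at 0.26 and *Creb1* at 0.12.

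With casein restriction, targets of FOXO1 were called in both directions. Of 12 listed FOXO1 targets that insulin represses, 6 were called with casein restriction, 3 in each direction, with a median of -0.03. *Igfbp1* had a lowest, median and highest count of 298, 464 and 877 in Cas-20% and of 1346, 2140 and 3178 in Cas-5%, with no overlap, and rose 4.08-fold (2.03 ± 0.28, edgeR adjusted p = 5.7e-05). *Pdk4*, pyruvate dehydrogenase kinase 4, rose by 0.88 ± 0.23. *Sesn3* fell by 0.91 ± 0.11, and *Klf15* and *Ppargc1a*, which are on this list as well, were lower. Thus *Igfbp1*, *Irs2* and *Pdk4* rose while *G6pc* and *Pck1* were not called. In Soy-10% livers *Igfbp1* ran from 330 to 796, against 376 to 1165 in Soy-20%+SAA (-0.38 ± 0.26, edgeR adjusted p = 0.33), and its casein effect exceeded its soy effect by 2.40 ± 0.42 (edgeR adjusted p = 0.0015). With soy restriction 1 of the 12 was called, *Sesn3*, which fell by 0.54 ± 0.09; without Soy-20%+SAA livers 3 to 6 its value was -0.45 and not called (edgeR adjusted p = 0.084). Between the restricted diets, where 4.59% of all genes were called higher in Cas-5%, 5 of 12 were called, all in that direction: *Igfbp1*, *Irs2*, *G6pc*, *Pck1* and *Cited2*, the last named after its value was seen.

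Most of the 9 listed genes that insulin induces were called lower under restriction of casein and of soy against Soy-20%+SAA. With casein restriction 6 of 9 were called, all lower, with a median of -1.85 against 0.02 for all genes, and with soy restriction 7 of 9 were called, all lower, with a median of -1.27 against -0.01. *Srebf1*, the lipogenic factor SREBP1, fell by 1.93 ± 0.16 with casein restriction, and *Thrsp*, a lipogenic protein, fell by 3.11 ± 0.36. *Acaca* and *Me1* were not called with casein (-0.04 and -0.03), nor was *Me1* with soy (-0.02). With soy restriction *Srebf1* was at 0.29 ± 0.27 and not called (edgeR adjusted p = 0.47), and at -0.39 without Soy-20%+SAA livers 3 to 6. Its change with casein minus that with soy was -2.23 ± 0.33 (edgeR adjusted p = 0.0003), and -1.55 without those livers (edgeR adjusted p = 0.0031). Between the control diets *Srebf1* was 2.03 ± 0.30 higher in Cas-20% than in Soy-20%+SAA (edgeR adjusted p = 0.013; 1.35 and not called without those livers), and between the restricted diets Cas-5% differed from Soy-10% by -0.19 ± 0.11 (edgeR adjusted p = 0.29). With soy restriction *Fasn*, fatty acid synthase, fell by 2.08 ± 0.31 and *Thrsp* fell by 2.32 ± 0.41. If Soy-20%+SAA livers 3 to 6 were left out, the median with soy restriction was -0.95 and 3 of 9 were called among 317 genes in all, *Fasn* at -1.38 (edgeR adjusted p = 0.017) being one, while *Thrsp* was at -1.28 and not called (edgeR adjusted p = 0.1). Against Soy-20%, edgeR called none of the 9 in Soy-10%, with a median of -0.94. An unadjusted p under 0.05 was found for 8 of the 9, against 1460 of all 11897 genes. Between the restricted diets 2 of 9 were called, 1 in each direction, against 10.7% of all genes.

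**Figure D4:**
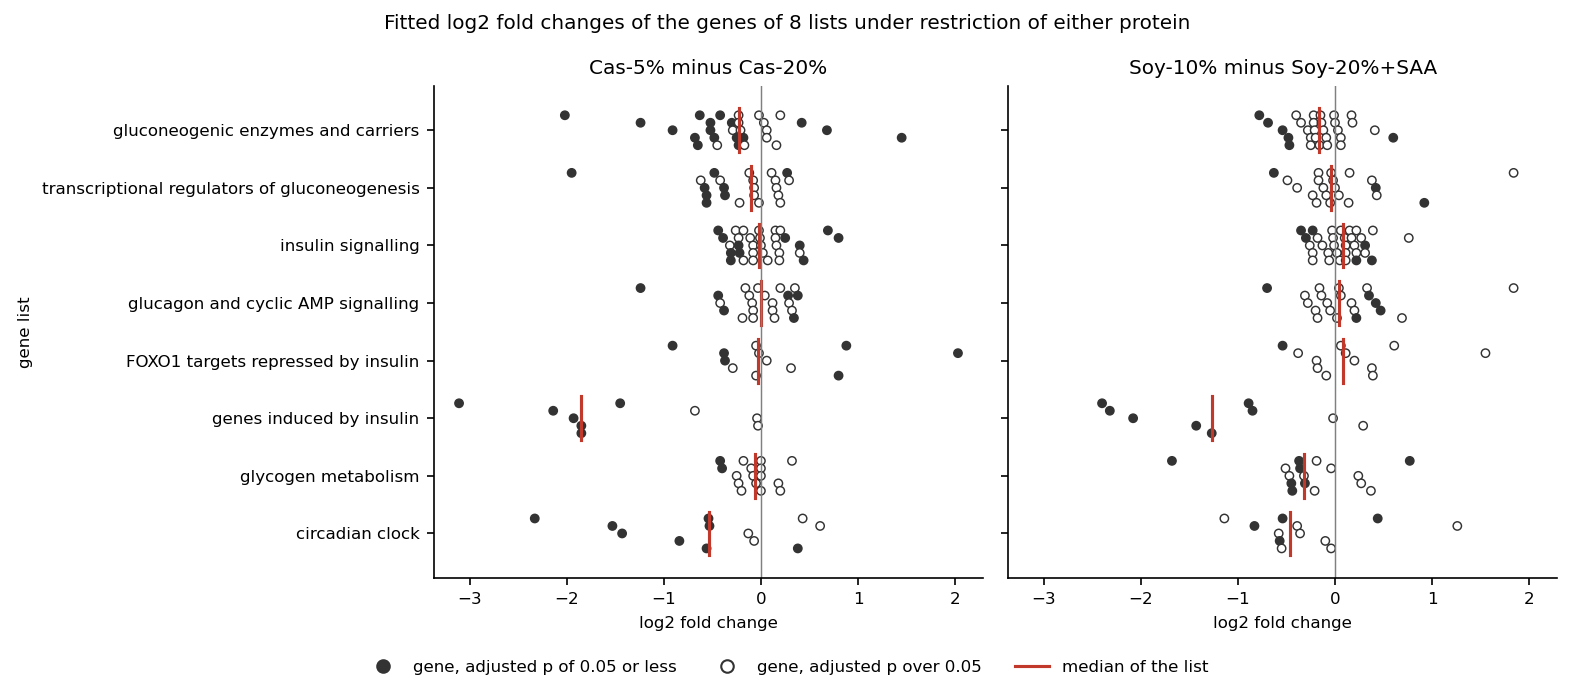
Log2 fold changes (x axis) of each gene of 8 lists (y axis) with casein restriction (left) and soy restriction (right); filled points were called by edgeR and red bars are list medians, and members of the 10 genes are included. Genes induced by insulin lie lowest, with medians of -1.85 and -1.27, and the lists of insulin and glucagon signaling are centred near 0, with medians between -0.02 and 0.08.

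Glycogen metabolism and the circadian clock, which share control by insulin and fasting with gluconeogenesis, were listed too. Of 16 glycogen genes, 2 were called with casein restriction, *Pgm1* (-0.42 ± 0.06) and *Gbe1* (-0.40 ± 0.10), and 7 with soy restriction (medians -0.06 and -0.32), among them *Pygl*, liver glycogen phosphorylase, at -0.45 ± 0.10. Leaving out Soy-20%+SAA livers 3 to 6, edgeR called none of the 16 (1 at an unadjusted p under 0.05), with *Pygl* at -0.18. Of 12 clock genes tested, 8 were called with casein restriction (median -0.53), 1 higher (*Clock*, 0.38 ± 0.07) and 7 lower, among them *Per2* at -1.53 ± 0.17, *Nr1d1* at -0.56 ± 0.08 and *Cry2* at -0.54 ± 0.09. Livers were taken after a fast of fixed length, and the hour of death of each mouse is not given in the sources used here. With soy restriction 4 of 12 were called (median -0.47), and none of 13 by edgeR without the same livers (2 at an unadjusted p under 0.05). Without them *Per2* was at -0.59 and *Cry2* at -0.52 after -0.57 and -0.54 with them, while *Tef* was at -0.15 after -0.83 and *Clock* at 0.07 after 0.44. The list was then no longer centred near -0.47. Its values lay on both sides of 0, from -0.59 to 0.23 (*Arntl* and *Per1*), with *Per3* at -0.03 after -0.58.

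Marker sums of some other cell types differed in their means between the casein diets. They were not tested, and the ranges of the casein diets overlapped for the stellate, red blood cell and cholangiocyte sums. The 6 stellate cell markers summed to a mean of 3685 normalized counts in Cas-20% and 4537 in Cas-5%, *Dcn* being the most abundant. The 5 red blood cell markers summed to 24380 and 16122, with *Hbb-bs* the most abundant, and the 4 cholangiocyte markers to 349 and 251, nearly all of it *Sox9* (322 and 227), while *Krt7* (7.28 and 7.25) and *Epcam* (11.7 and 10.3) differed little. Of 5 adipocyte markers only *Cfd* was in the table, at means of 78.3 and 23.4, while *Adipoq*, *Plin1*, *Lep* and *Retn* were not. Sums for Kupffer cell markers (2770 and 2728) and endothelial markers (1786 and 1889) were close, and the 3 lymphocyte markers in the table summed to 21.8 and 19.2. In the soy diets the cholangiocyte sums of Soy-10% (169 to 215) lay below those of Soy-20%+SAA (231 to 344) and Soy-20% (258 to 346). *Sox9* had means of 174, 266 and 273 in the same order. The part of these cells in the changes of the members and the lists was not tested.

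Across the 30 livers the members did not vary as a block. Pearson correlations of log2 CPM (counts relative to library size) were 0.72 between *Pck1* and *G6pc*, 0.68 between *Irs1* and *Irs2*, 0.64 between *Foxo1* and *Irs2* and 0.56 between *Pck1* and *Ppargc1a*, but -0.39 between *Pck1* and *Gcgr* and -0.18 between *Pck1* and *Pc*. Without the Soy-20%+SAA livers the same pairs gave 0.67, 0.71, 0.80, 0.51, -0.16 and -0.01 over 24 livers. *Insr* and *Gcgr* changed from -0.08 to 0.57. Among 10731 genes, those most like *Pck1* were *Flvcr1* (0.78), *Klf15* (0.77) and *Tm4sf4* (0.73), and those most like *G6pc* were *Pck1* (0.72), *Apc* (0.70) and *Mfsd14a* (0.69). *Irs1* was closest to *Zkscan1* (0.89), *Prox1* (0.88) and *Rnf43* (0.81), and *Irs2* to B930025P03Rik (0.86), *Emp2* (0.84) and *Itih2* (0.84). The nearest genes to *Insr* were *Sun1* (0.91), *Ccdc6* (0.89) and *Cyp2e1* (0.89), to *Gcgr* *Phf14* (0.88), *Picalm* (0.85) and *Wasl* (0.84), and to *Foxo1* *Nnt* (0.84), *Tcp1* (0.82) and *Sult1c2* (0.81). Without the Soy-20%+SAA livers the named genes gave 0.57, 0.71 and 0.61 with *Pck1* and 0.81, 0.71 and 0.74 with *Insr*. They gave 0.88, 0.82 and 0.90 with *Gcgr* and 0.87, 0.84 and 0.86 with *Foxo1*. *Fbp1* was nearest to *Rrm2* (0.81), *Mettl9* (0.71) and *Lyplal1* (0.68), *Pc* to *Aplp2*, *Cpeb1* and *Cyp2d26* (0.77 each) and *Ppargc1a* to *Lacc1* (0.72), *Zmiz1* (0.67) and *Ctsl* (0.67). The points share diets, depth and, in the Soy-20%+SAA livers, the GC slope, and the values are given as a description.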

How the data were processed

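Liver RNA of 30 mice was analysed, 1 library per mouse and 6 mice per diet, grouped as labelled. The authors used the QuantSeq 3′ FWD kit of Lexogen, a NextSeq 500 and the QuantSeq pipeline 2.3.6 on GRCm38; the aligner is not given in the sources used here. The paper gives a read length of 75 bp and the labels 50 bp. The first deposited table holds raw counts per gene, the lowest gene total being 90. In the second, a signal the authors made with DESeq2 1.30, each count is divided by a size factor of its library (0.759 to 1.3), with no scaling for length; levels in the text are these values and are not compared between genes. Symbols lacking for 1718 genes were filled for 1684 from GENCODE M21.

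Raw counts were tested in R 4.3.3 with edgeR 4.0.16 (filterByExpr, TMM, quasi-likelihood F test, Benjamini-Hochberg adjustment over all genes tested, called at 0.05), on the libraries of the diets compared; scripts were tested on simulated data. Alternatives were DESeq2 1.42.0, its size factors in edgeR, no filter, at least 10 counts in every liver, all 30 livers in 1 fit, the GC slope as a covariate (12014 genes with a mean of at least 10 counts), the replicate number as a block, and leaving out livers. Replicate numbers were not found to pair livers. Correlations used log2 CPM (prior count 2) of genes with a mean of at least 20 counts.

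The members and the gene lists, written by hand, were chosen with earlier results of these data known. All members are named, and from each list up to 3 genes per direction with the smallest adjusted p among those called with casein or soy restriction, and for each member the 3 most similar genes; some genes that this rule names are not reported here.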

Additional observations from a re-analysis of the deposited data

Results flagged for a closer look

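In groups of 6 livers, a single liver was singled out where its gap to the nearest other liver was large against the range of its diet (Dixon's 95% limit for 6 values); 50 groups (10 genes in 5 diets) were examined, and chance gives about 1 in 20. *Pck1* in Cas-5% liver 3 was 18255 normalized counts against 9048 to 11396 in the other 5 livers (a gap of 0.745 of the range). *Fbp1* in Soy-10% liver 6 was 6715 against 5509 to 5935 (0.647). *Gcgr* in Soy-20% liver 3 was 1155 against 977 to 1038 (0.658).

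The response of *Irs2* to protein restriction differed between casein and soy, by 0.69 ± 0.19 on the log2 scale (edgeR adjusted p = 0.024, n = 6 per diet): all 6 Cas-5% livers were above all 6 Cas-20% livers, while 2 of the 6 Soy-10% livers were above all Soy-20%+SAA livers. It was not called in a fit over all 30 livers (0.68, edgeR adjusted p = 0.054) or with Soy-20% as the control (0.43, edgeR adjusted p = 0.31). Casein was cut to 5% and soy to 11.5%, so source and degree of restriction cannot be told apart.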

How the results depend on the processing

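Limits first. Each diet has 6 livers, and p-values set the difference between diets against the spread between these mice. Counts of calls that use the Soy-20%+SAA diet depend on its livers 3 to 6. Numbers of genes called are as follows, with the reported number before each set. Soy restriction (2035): 3077 with all 30 livers in 1 fit, 389 with the GC slope as a covariate and 317 without Soy-20%+SAA livers 3 to 6. Soy-10% against Soy-20% (103): 228 in DESeq2 and 62 over 30 livers. Addition of amino acids (1): 885 in DESeq2, 1793 over 30 livers, 2 each with DESeq2 size factors, no filter or at least 10 counts in every liver, and 0 with the GC covariate or without livers 3 to 6. Control diets (291): 1155 in DESeq2, 2331 over 30 livers, 5 with the GC covariate, 141 with the replicate block and 3 without livers 3 to 6. Casein minus soy effect (1089): 564 with the GC covariate and 296 without livers 3 to 6. The 5 diets (5450): 3550 and 3433 in the same order. Of the 10 members, DESeq2 and the fit over 30 livers each called 1 for the added amino acids and 3 between the control diets, where the GC covariate and the fit without livers 3 to 6 called 0. For the casein minus soy effect DESeq2 called 2 members, and Soy-20% as control, chosen after seeing the data, called 0.

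Signs of changes that were not called turned in a few fits. With the GC covariate, soy restriction gave -0.26 for *Pck1*, 0.17 for *Foxo1*, -0.06 for *Irs2* and -0.07 for *Insr*. Without livers 3 to 6 these were -0.37, 0.11, -0.08 and -0.14, and *Insr* with added amino acids was 0.05. *Irs2* between the control diets was -0.17 in both. The cause was not tested. With 1 liver left out at a time, *Insr* ranged from -0.07 to 0.02 with casein restriction, *Pck1* from -0.04 to 0.29, *Fbp1* from -0.02 to 0.05 and *Foxo1* from -0.06 to 0.03 with soy restriction, and *Irs2* from -0.04 to 0.09 between the control diets. Genes called then ranged from 1219 to 3119 for soy restriction, 50 to 146 against Soy-20%, 0 to 1587 for added amino acids, 9 to 1817 for the control diets and 719 to 1941 for the casein minus soy effect. Members called ranged from 0 to 2 for soy restriction and for added amino acids, 0 to 4 for the control diets and 1 to 2 for the casein minus soy effect. The highest count without 1 liver came from leaving out Soy-20%+SAA liver 1 in 4 of these comparisons. Livers were not left out singly for the 5 diets, which was not run.

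Livers with the same replicate number did not deviate together (r from -0.19 to 0.20), so the replicate block has no basis in pairing. With it, *Fbp1* was called with casein restriction (-0.22, edgeR adjusted p = 0.04) and over the 5 diets (adjusted p = 0.046), and no other member's call changed. Between 0 and 2 of 6 livers correlated best with their own number.

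Of the members' fold changes given in the report, 318 of the values under these settings kept sign and call, 10 gained a call, 8 lost one and 11 turned sign; with 1 liver left out the numbers were 535, 15, 24 and 14. Changes not given there are not in these numbers. Some of them turned sign too, as with added amino acids for *Pck1* (-0.31, then 0.02 with the GC covariate and 0.13 without livers 3 to 6) and *G6pc* (-0.16, then 0.12 and 0.06). *Fbp1* between the restricted diets, at 0.00, ran from -0.06 to 0.05 with 1 liver left out and was counted as unchanged.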
